A study of Mus musculus with 4 samples.

Results

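ESC-derived steroidogenic cells are described here in the XY library of day 6 (D6) of differentiation. They were taken as the D6 cells with 2 or more unique molecular identifiers (UMIs, counted transcript molecules) each of Star and Cyp11a1. With the limits of the study's methods on detected genes and mitochondrial UMIs, 153 of 2285 D6 cells met this rule, which was 6.70% (exact binomial 95% CI 5.71 to 7.80). They were 153 of 10987 retained cells in the 4 XY libraries of the series. The same rule found 0 of 3837 cells at E10.5, 4 of 2101 cells at E11.5, and 4 of 2764 cells at E12.5. Star and Cyp11a1 chose the cells, so their own values are a description.

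Steroidogenic cells make hormones from cholesterol. Star moves cholesterol into the mitochondrion, Cyp11a1 cuts it to pregnenolone with electrons passed on by Fdxr and Fdx1, and Hsd3b1 makes progesterone from pregnenolone. Adrenal cortex and testis share these steps and an origin in cells with Nr5a1, a nuclear receptor that turns on steroidogenic genes. The gene lists used here take them to part afterward. In the adrenal cortex, Cyp21a1 and Cyp11b1 lead to corticosterone, and Mc2r with its partner Mrap receives ACTH. In Leydig cells, Cyp17a1 leads to androgens, Insl3 is a secreted peptide hormone, and Lhcgr receives luteinizing hormone. The comparison describes whether the D6 cells carried the adrenal genes (Cyp21a1, Cyp11b1, Mc2r, and Mrap), the Leydig genes (Insl3, Cyp17a1, and Lhcgr), or both. These lists were chosen with earlier results of these data known, so the answer is a description and not a test. Whether fetal adrenal or fetal Leydig cells keep to their own list was not tested. Mc2r and Mrap also had UMIs in the in vivo XY gonad libraries, as given below. A UMI of a gene on either list thus does not by itself name the tissue.

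The D6 cells came from N271S9C, a mouse ESC line labelled C57BL/6J with an Nr5a1 reporter (Nr5a1-hCD27a in the labels, hCD271 in the methods) and Sox9-2A-CGFP. The methods give its origin as a cross of C57BL/6J with 129X1/SvJ. The ESCs were converted to epiblast-like cells and cultured as aggregates, first with CHIR99021, BMP4, and EGF. Retinoic acid, Sonic hedgehog, and PD0325901 followed, and then BMP4, FGF9, and the Wnt inhibitor IWR1. Cells with the Nr5a1 reporter were enriched on magnetic columns before the D6 library was made, and the D6 comparison cells passed the same columns. In the paper, this enrichment was partial, and cells with the reporter stayed a minority of the enriched cells. Shares of D6 cells are thus not shares of cells with the reporter. The E10.5, E11.5, and E12.5 libraries came from XY gonads of ICR embryos, for which the labels list no transgene. Mesenchyme was left on the gonads at E10.5, whereas gonads of E11.5 and E12.5 were freed of mesonephros. Each condition is 1 library, from 1 ESC line at D6, so no difference has a replicate check and no p-value is given. Intervals are at 95% and cover counting error only.

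The 153 steroidogenic cells held 1113310 UMIs, with a median of 6809 per cell (lowest 2167, highest 13485). The 1762 D6 cells without a UMI of either gene, called neither cells below, held 8624833 UMIs with a median of 4343. The deeper cells are thus more often on the steroidogenic side, which the rule itself favors. Levels are given as CPM, the UMIs of a gene per 1000000 UMIs of the group, and shares of cells also after thinning each cell to 2500 UMIs. Thinning left out 1 steroidogenic cell and 87 neither cells. No D6 barcode was shared with an in vivo library, whereas the in vivo libraries shared 7 to 15 barcodes with each other. Nr5a1, whose reporter was used for enrichment, was found in 149 of the 153 cells (97.4%, 93.4 to 99.3) and in 17.0% of neither cells (82.2% and 9.73% after thinning).

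Star had 941 UMIs over the 153 cells, from 2 to 25 per cell with a median of 5. Cyp11a1 had 1477 UMIs, from 2 to 44 per cell with a median of 7. In 34 cells just inside the rule, the lower of the counts was exactly 2, and Star was at 532 CPM and Cyp11a1 at 701 CPM. In 68 cells just outside it, both genes were found but the lower count was 1, and each gene was at 342 CPM. No gap in these counts separated the steroidogenic cells from the others, as the plot of Star against Cyp11a1 per cell shows.

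**Figure D1:**
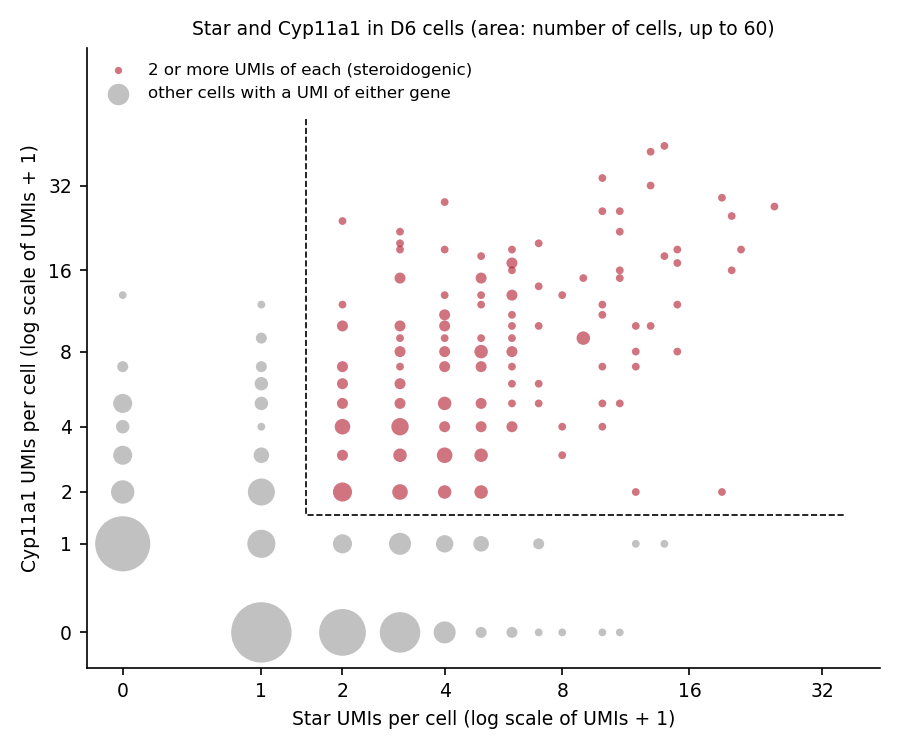
Star (x axis) and Cyp11a1 (y axis) UMIs per D6 cell on log scales of UMIs + 1, for cells with a UMI of either gene. The area of each point gives the number of cells (more than 60 drawn as 60), the red points inside the dashed lines are the 153 steroidogenic cells, and the grey points reach up to the lines without a gap.

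Cyp11a1, the cholesterol side-chain cleavage enzyme, lies at chr9:58006411-58027023 (+) in mouse GRCm38. The window before 1 of its annotated starts is shown because it holds AGGTCA, the half-site bound by Nr5a1 and related receptors, in capitals. The windows of Fdx1 and Fdxr, the electron carriers of the same step, are shown beside it. Each is the 250 bases before a RefSeq start in GRCm38.p6, written along the strand of the gene. They are at chr9:58014702-58014951 (+), chr9:51963603-51963852 (-), and chr11:115276970-115277219 (-).
Cyp11a1: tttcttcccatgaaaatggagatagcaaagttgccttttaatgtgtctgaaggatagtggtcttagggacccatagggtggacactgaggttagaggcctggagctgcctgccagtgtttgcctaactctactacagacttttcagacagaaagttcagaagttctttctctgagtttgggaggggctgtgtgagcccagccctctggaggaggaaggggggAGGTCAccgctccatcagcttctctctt
Fdx1: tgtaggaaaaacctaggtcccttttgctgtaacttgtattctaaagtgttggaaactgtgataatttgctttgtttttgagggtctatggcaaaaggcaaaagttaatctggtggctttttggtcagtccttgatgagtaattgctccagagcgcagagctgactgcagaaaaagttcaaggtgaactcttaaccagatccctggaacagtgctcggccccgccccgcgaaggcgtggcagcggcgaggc
Fdxr: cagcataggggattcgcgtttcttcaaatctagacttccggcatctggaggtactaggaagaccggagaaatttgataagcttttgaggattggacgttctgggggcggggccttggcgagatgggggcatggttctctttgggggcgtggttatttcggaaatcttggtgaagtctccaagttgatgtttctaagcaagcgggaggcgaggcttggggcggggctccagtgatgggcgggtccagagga

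The first base of AGGTCA lay 28 bases before the Cyp11a1 start. It was searched on both strands, and 14.0% of the 32851 RefSeq windows of this length hold it. A second Cyp11a1 window and the windows of Fdx1, Fdxr, Hsd3b1, Adh1, Akr1cl, and Insl3 hold no match, whereas those of Nr0b1 and Lhcgr do. A match is a description of these letters and not of a bound site. Of 16 genes looked for, 9 were in the RefSeq table.

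The adrenal genes were found in most of the steroidogenic cells. At least 1 of the 4 genes was found in 137 of the 153 cells (89.5%, 83.6 to 93.9), against 149 of 1762 neither cells (8.46%, 7.20 to 9.85). After thinning, these shares were 75.0% of 152 cells and 4.72% of 1675 cells. At least 1 of the 3 Leydig genes was found in 8 steroidogenic cells (5.23%, 2.28 to 10.0) and in 0.397% of neither cells. After thinning, it was found in 4 cells, or 2.63%. Of the 153 cells, 131 had adrenal genes without Leydig genes, 6 had both, 2 had Leydig genes alone, and 14 had none of the 7 genes.

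Cyp21a1 (chr17:34801348-34804561, -), the 21-hydroxylase, had 317 UMIs in 62 of the 153 cells (40.5%, 32.7 to 48.7), from 0 to 36 UMIs per cell. It was at 285 CPM (254 to 318), against 15 UMIs and 1.74 CPM (0.973 to 2.87) in neither cells, a ratio of 164 (97.8 to 296). Of the 50-base windows in the last 500 bases of its transcripts, 13.1% also occur in the pseudogene Cyp21a2-ps, so reads could be split between them. Cyp11b1 (chr15:74834125-74841643, -), the 11-beta-hydroxylase, had 331 UMIs in 85 cells (55.6%), from 0 to 20 per cell with a median of 1. Its level was 297 CPM (266 to 331) against 1.04 CPM (0.477 to 1.98), a ratio of 285 (148 to 629). None of the last windows of Cyp11b1 occurs in Cyp11b2, the aldosterone synthase, which had 0 UMIs in the steroidogenic and in the neither cells. Both enzymes were thus uneven among the steroidogenic cells and near 0 in neither cells. In the 68 cells with both rule genes below the limit, Cyp21a1 was at 78.4 CPM and Cyp11b1 at 98.0 CPM.

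Mrap (chr16:90738207-90749785, +), which carries the ACTH receptor to the cell surface, had 206 UMIs in 93 cells (60.8%), from 0 to 8 per cell with a median of 1. It was at 185 CPM (161 to 212) against 1.51 CPM (0.803 to 2.58), a ratio of 123 (70.2 to 234). Mc2r (chr18:68406907-68429320, -), the ACTH receptor itself, had 119 UMIs in 75 cells (49.0%), from 0 to 4 per cell. Its level of 107 CPM (88.5 to 128) compared with 15.4 CPM (12.9 to 18.3) in neither cells, a ratio of 6.93 (5.37 to 8.94). Mc2r was found in 6.53% of neither cells and supplied 133 of the 170 adrenal UMIs there, so of the 4 genes it set the steroidogenic cells apart least.

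The Leydig genes were rare. Insl3 had 0 UMIs in the 153 cells (up to 1.96% of cells could hold a UMI at a count of 0), and 1 UMI in the neither cells. Cyp17a1, the 17-alpha-hydroxylase, had 20 UMIs in 3 cells, of which 18 were in 1 cell. That cell also had 15 Star, 19 Cyp11a1, 2 Cyp11b1, 1 Mc2r, and 2 Mrap UMIs. The other Cyp17a1 UMIs were single UMIs in 2 cells without any of the adrenal genes. Lhcgr had 5 UMIs, each in a cell of its own. Neither Insl3, Cyp17a1, nor Lhcgr reached the mean of 10 CPM used below to compare genes.

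**Figure D2:**
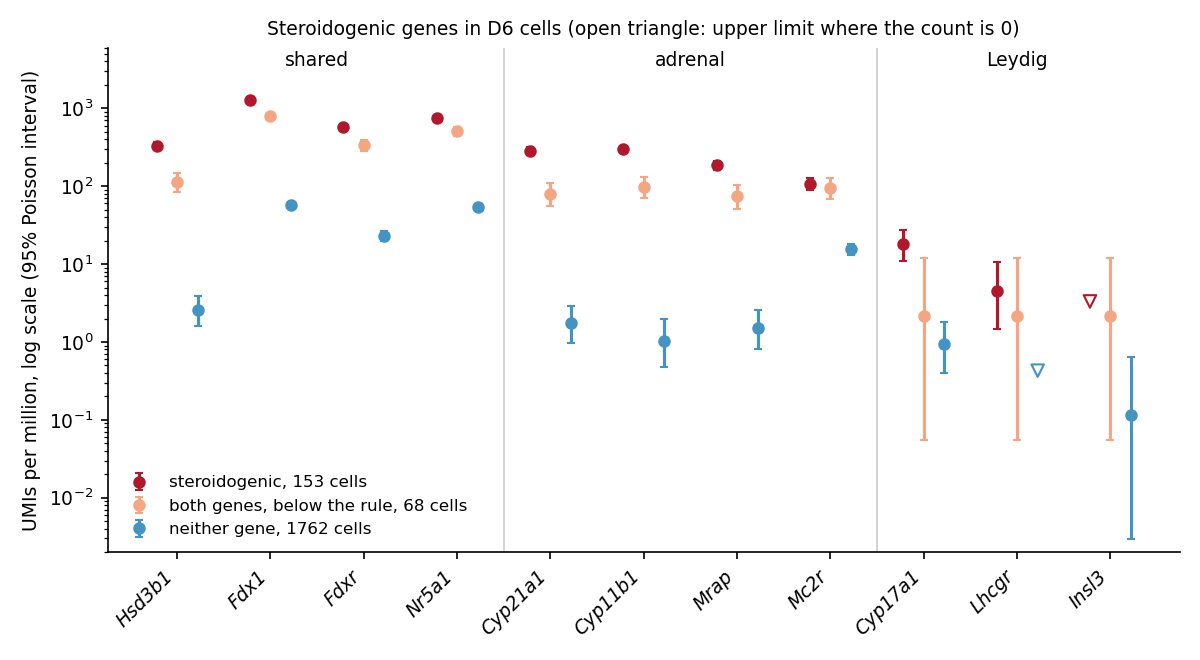
CPM on a log y axis for genes shared by steroidogenic tissues, adrenal genes, and Leydig genes in steroidogenic cells (red), D6 cells with both rule genes below the limit (orange), and D6 cells with neither gene (blue). Bars are exact Poisson 95% intervals and open triangles mark the upper limit of a count of 0. Cyp21a1 stood at 285, 78.4, and 1.74 CPM, and the Leydig genes were below 20 CPM in all 3 groups.

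The share of cells with adrenal genes was graded by the rule genes across the D6 library. At least 1 adrenal gene was found in 42 of the 68 cells with both rule genes below the limit (61.8%). The share was 27.3% of 77 cells with Cyp11a1 alone and 20.0% of 225 cells with Star alone. All 4 genes were found in 21 steroidogenic cells, 3 of them in 39, 2 in 37, 1 in 40, and none in 16. In neither cells, 146 had 1 of the genes, 3 had 2, and 0 had more. Median UMIs of these classes ran from 4343 in neither cells over 6329 in cells with both genes below the limit to 6809 in steroidogenic cells, so that depth moves with the classes and its part was not tested. Among 300 neither cells with Nr5a1, the share was 7.33% (4.65 to 10.9), an interval that includes the 8.46% of all neither cells. In 16 neither cells with 3 or more endothelial genes and a median of 8612 UMIs, it was 0, which allows up to 18.8%.

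**Figure D3:**
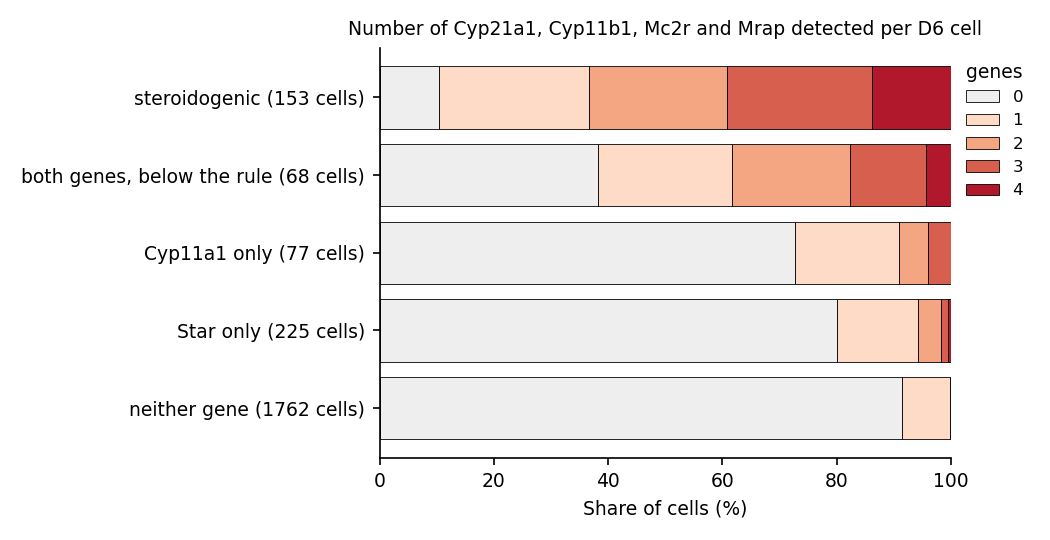
Share of cells in percent (x axis) by how many of Cyp21a1, Cyp11b1, Mc2r, and Mrap had a UMI, for 5 classes of D6 cells defined by Star and Cyp11a1 (y axis). Cells with at least 1 of the genes made up 89.5% of steroidogenic cells, 61.8% of cells with both rule genes below the limit, and 8.46% of neither cells.

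Across all genes, 9102 had a mean of at least 10 CPM over steroidogenic and neither cells. With 10 CPM added to each level, 462 of them (5.08%) were 2-fold or more higher in steroidogenic cells and 707 (7.77%) 2-fold or more lower, 12.8% in either direction. The median log2 ratio of all genes compared was -0.01. All 4 adrenal genes were among the higher genes, with a median log2 ratio of 4.37. They summed to 874 CPM (820 to 931) against 19.7 CPM (16.9 to 22.9). Cyp21a1, Cyp11b1, and Mrap reached the mean of 10 CPM through the steroidogenic cells alone, so they could be compared only because they were high there. None of the 3 Leydig genes reached the mean of 10 CPM, so none was counted in either direction, and their sum was 22.5 CPM (14.5 to 33.1) against 1.04 CPM. Most of it was Cyp17a1, at 18 UMIs in 1 cell and 20 in all, or 19.4 times the level in neither cells (8.17 to 50.8, a log2 ratio of 1.36). Cyp17a1 was compared and was 2-fold or more higher under 6 of 12 alternatives, among them 3 or more UMIs of each rule gene (1.56). Another of these dropped the limit on the mean, so Cyp17a1 was compared there without passing it. Under the other 6 alternatives, Cyp17a1 was not compared. As the cells were chosen by genes of the same pathway in the same contrast, such counts describe the cells and support nothing about them.

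Of 14 genes shared by steroidogenic tissues, 7 were compared, 5 were 2-fold or more higher, and none was lower, with a median log2 ratio of 1.38. The shares to set beside this and each list below are 5.08% higher and 7.77% lower over all genes compared. Hsd3b1 had 368 UMIs in 79 cells and was at 331 CPM (298 to 366) against 2.55 CPM (1.60 to 3.86), a ratio of 130 (84.3 to 209). It too reached the mean of 10 CPM through the steroidogenic cells alone. Fdx1 was at 22.6 times (20.4 to 25.1) and Fdxr at 25.4 times (21.6 to 29.9) the level in neither cells, and they were found in 94.8% and 92.8% of the steroidogenic cells. Por, which passes electrons to the microsomal enzymes, and Cyb5a were 2.64 and 2.74 times higher. Cyp19a1, the aromatase, and Akr1c18 and Hsd11b1, which act on finished steroids, had 0 UMIs, as did Hsd3b2 and Cyp7b1.

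Among 9 other genes of the adrenal cortex, 6 were compared, 3 were higher, and 1 was lower. Over all genes compared, 5.08% were higher and 7.77% lower. Abcb1b, a transporter, was at 75.5 CPM against 1.74 CPM, with UMIs in 37.9% of the cells. Akr1b7, an aldose reductase-like enzyme of the adrenal cortex, was at 21.6 CPM (13.8 to 32.1) against 1.74 CPM. Abcb1b and Akr1b7 reached the mean of 10 CPM through the steroidogenic cells alone, so they could be compared only because they were high there. Hoxb9, a homeobox gene of the adrenal primordium, was at 128 CPM (108 to 151) against 55.5 CPM, a log2 ratio of 1.08. Its call was lost after thinning (0.96), with no upper limit on genes (0.91), and against all other D6 cells (0.95). The lower gene was Hsd11b2, which inactivates corticosterone, at 3.59 CPM against 61.0 CPM. Nr0b1, a repressor of Nr5a1, was at 21.6 CPM against 11.7 CPM, a log2 ratio of 0.54 that turned to -0.28 against neither cells with Nr5a1. Shh had 2 UMIs. Of 10 other genes of Leydig cells, 1 could be compared, and this was Prlr, the prolactin receptor, with 112 CPM (93.5 to 134) against 4.75 CPM. Prlr passed the mean in the same way, through the steroidogenic cells alone. Ren1 had 2 UMIs, and Sult1e1 and Pcsk1 had 0.

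Of 22 genes that make cholesterol or control its synthesis, 21 were compared. Of these, 6 were 2-fold or more higher (5.08% of all genes compared) and none was lower (7.77% of all genes compared). The median log2 ratio was 0.68. Fdps was at 3.46 times (2.93 to 4.07), Nsdhl at 3.45 times, and Msmo1 at 3.11 times the level in neither cells. Fdft1, Sc5d, and Hmgcs1 were the others, at 2.68, 2.57, and 2.12 times. Hmgcs1 lost the 2-fold call under 5 of 11 alternatives, with a log2 ratio of 0.55 against neither cells with Nr5a1. Acat2, Lss, Srebf2, and Insig1 had log2 ratios from -0.10 to 0.31. Of 16 genes of cholesterol uptake, storage, and transfer, 15 were compared and 3 were higher, with a median log2 ratio of 0.58. These were Apoe, at 812 CPM against 206 CPM, the efflux transporter Abca1 at 3.09 times, and Lipe, the lipase that frees stored cholesterol, at 3.64 times. The lipoprotein receptor Scarb1 was at 2.07 times the level in neither cells before the 10 CPM were added and did not count as 2-fold.

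ACTH acts through cAMP and protein kinase A. Of 17 genes of this pathway, 11 were compared, 3 were higher, and none was lower, with a median log2 ratio of 0.20. Over all genes compared, 5.08% were higher and 7.77% lower. Prkar2b, a regulatory subunit of the kinase, was at 123 CPM (103 to 145) against 17.9 CPM. Nr4a1, a nuclear receptor induced by cAMP, was at 147 CPM (126 to 172) against 22.6 CPM, and Akap1, which anchors the kinase to mitochondria, at 2.86 times the level in neither cells (2.03 to 3.97). Fos, a gene that responds to cell dissociation, was at 127 CPM in both groups, and of the 8 genes of that kind, 6 were compared and 1, Hspa1b, was higher. Of 14 receptors and genes that respond to steroids or ACTH, 5 were compared and 1 was lower, the endothelin receptor Ednra, at 16.2 CPM against 109 CPM.

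The 15 genes with the largest ratios were the rule genes, 6 genes given above (Cyp11b1, Hsd3b1, Cyp21a1, Fdx1, Fdxr, and Mrap), and Adh1, C4b, Ly6d, Acsbg1, Akr1cl, Apoc1, and Nr5a1. Adh1, an alcohol dehydrogenase that oxidizes retinol, was in 140 cells (91.5%), from 0 to 42 UMIs with a median of 9, at 1354 CPM against 17.0 CPM. Akr1cl, an aldo-keto reductase, was in 152 cells at 15.5 times the level in neither cells (14.2 to 16.9). Its log2 ratio of 3.81 was 2.19 against neither cells with Nr5a1, which had Akr1cl at 295 CPM. C4b, a complement component, was at 204 CPM against 1.04 CPM in 52.9% of the cells, and 30.1% of its last windows also occur in its near copy C4a. Apoc1, an apolipoprotein, was at 354 CPM against 20.2 CPM, and Acsbg1, an acyl-CoA synthetase, at 207 CPM against 5.33 CPM. Acsbg1, C4b, and Ly6d reached the mean of 10 CPM through the steroidogenic cells alone. Ly6d stood apart, as its 230 UMIs were in 22 cells (14.4%) with up to 45 in 1 cell.

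Transcription factors of the adrenal and gonadal primordium went in both directions. Of 16 factors, 12 were compared, 2 were higher, and 5 were lower, with a median log2 ratio of -0.68. The shares over all genes compared were 5.08% higher and 7.77% lower. Nr5a1 was at 749 CPM (699 to 802) against 53.6 CPM, and Cited2, which raises Nr5a1 in the adrenal primordium, at 394 CPM against 90.7 CPM. Lhx9 was at 11.7 CPM against 80.0 CPM, Emx2 at 15.3 CPM against 56.3 CPM, and Wt1 at 69.2 CPM against 186 CPM. Nr2f2 and Zfpm2 were the other lower factors, at 206 CPM against 1271 CPM and at 40.4 CPM against 110 CPM. Wt1 lost its call with 1 or more UMIs of each rule gene (log2 ratio -0.83) and with no upper limit on genes (-0.52). Of the 77 Wt1 and 44 Gata4 UMIs of the steroidogenic cells, 45 and 24 were in 16 cells of another cluster described below. The other 137 cells were at 32.2 CPM of Wt1 and 20.1 CPM of Gata4. Over all 153 cells, Gata4 missed the limit, at 39.5 CPM against 87.3 CPM and a log2 ratio of -0.97. It passed after thinning (-1.56), with a pseudocount of 1 CPM or against all other D6 cells (-1.12 each), and against neither cells with Nr5a1 (-1.66), whereas Gata6 was at 1.15 times the level in neither cells.

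Most genes of stroma and of dividing cells were lower, against 7.77% of all genes compared. All 10 interstitial genes were 2-fold or more lower, with a median log2 ratio of -2.25, and so were 6 of 7 genes of adrenal capsule and stroma, with a median of -2.57. Col1a1, a collagen chain, was at 12.6 CPM (6.87 to 21.1) against 916 CPM, the largest difference in this direction, and the interstitial genes Pdgfra, Tcf21, and Maf were 22.4-fold, 13.2-fold, and 12.6-fold lower. Col1a2, Ptn, Cdh11, Vcan, Mgp, Dnm3os, Mfap4, Acta2, Asb4, Cxcl12, Mmp2, Islr, Sfrp2, and Rbms3 were the others of the 15 lowest, with log2 ratios from -5.05 to -3.51. Of 12 cell cycle genes, 8 were lower, with Top2a at 57.5 CPM against 619 CPM, and Cdkn1c, an inhibitor of the cycle, was higher, at 2393 CPM (2303 to 2485) against 858 CPM. Of 12 genes that respond to retinoic acid, Hedgehog, BMP, or Wnt, 6 were compared and 2 were lower, Id3 at 89.8 CPM against 789 CPM and the Wnt target Nkd1 at 16.2 CPM against 47.2 CPM.

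**Figure D4:**
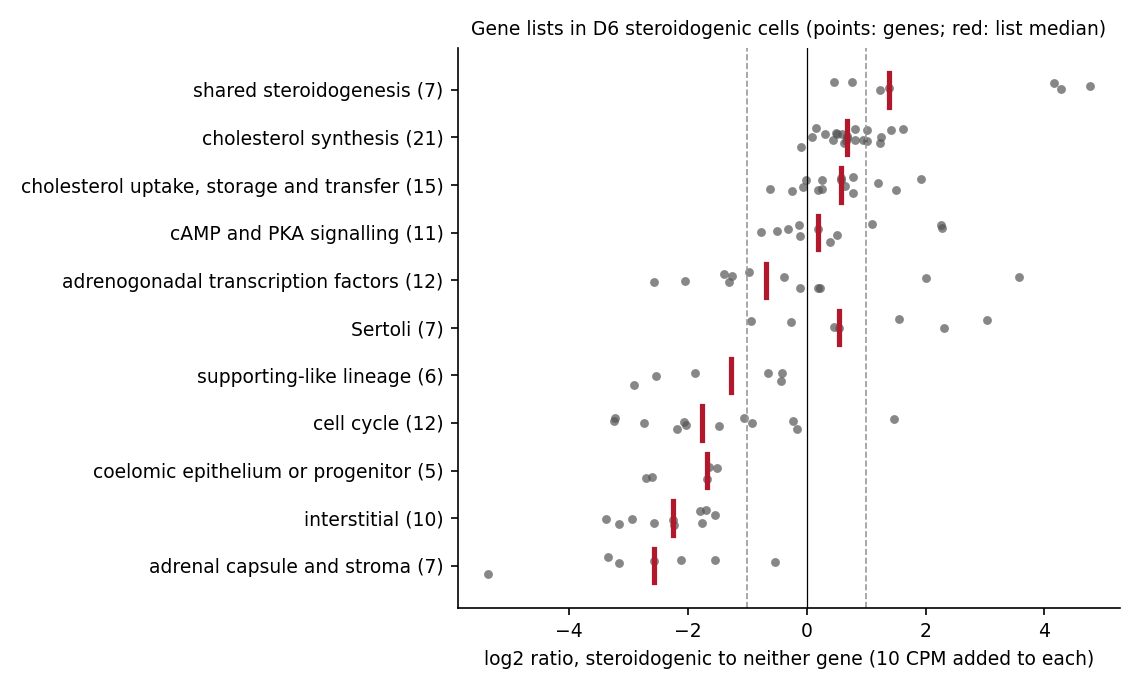
Log2 ratio of each gene compared (points, x axis, with 10 CPM added to each level) in 11 gene lists (y axis, number of genes compared in brackets), steroidogenic over neither cells. Red lines mark list medians and dashed lines 2-fold, and the medians ran from 1.38 for shared steroidogenesis to -2.57 for adrenal capsule and stroma.

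Markers of other cells were looked for in the same way, beside 5.08% higher and 7.77% lower over all genes compared. Of 11 Sertoli genes, 7 were compared and 3 were higher, namely Inha at 11.7 times, Ptgds at 7.04 times, and Fgf9 at 5.35 times the level in neither cells. Against neither cells with Nr5a1, the log2 ratio of Ptgds was 0.65 in place of 2.31, which ended its call, and that of Inha was 1.69 in place of 3.04. The list summed to 519 CPM against 152 CPM with Inha, also a gene of steroidogenic cells, as its most abundant member. Sry and Sox8 had 0 UMIs, Sox9 was at 16.2 CPM against 40.0 CPM, and Amh had 42 UMIs in 6 cells. Of 7 genes of the granulosa pathway, 3 were compared and Rspo1 was lower, at 8.98 CPM against 31.3 CPM. Of the coelomic epithelial and progenitor genes, 5 of 10 were compared and all 5 were lower, and so were 3 of 6 genes of the supporting-like lineage. Endothelial genes summed to 16.2 CPM against 128 CPM, with 5 of 8 at 0 UMIs and Egfl7 the most abundant, and 2 of 2 compared were lower. Of nephric genes, 4 of 7 were at 0, and the only gene compared, Osr1, was lower. Chromaffin and neural crest genes were at 0 for 8 of 9 and summed to 1.80 CPM. The 7 macrophage genes were all at 0, 5 of 6 erythroid genes were at 0, and 5 of 8 germ cell or pluripotency genes were at 0, with at most 3 UMIs of any other.

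The steroidogenic cells were also described in parts. They were ranked by the share of their UMIs that came from Star and Cyp11a1 and divided into 3 sets of 51 cells. As the rule used the same genes, the values by set are a description and support nothing about the cells. Cyp11b1 was at 167 CPM (130 to 212), 258 CPM (209 to 314), and 509 CPM (434 to 593) from the lowest to the highest set. Mrap was at 133, 178, and 259 CPM, and Adh1 at 814, 1334, and 2065 CPM in the same order. Cyp21a1 did not follow this order, at 254, 175, and 451 CPM, and Mc2r was at 109, 114, and 95.7 CPM with intervals that overlap. Top2a was at 111, 34.5, and 15.4 CPM. Median UMIs per cell were 7568, 6569, and 6179, so the set with the largest share was also the shallowest.

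Cells with and without Cyp21a1 differed in other genes. The 62 cells with a UMI had a median of 7458 UMIs and the 91 cells without one 6452. Cyp11b1 was at 397 CPM (343 to 456) in the former and 217 CPM (182 to 257) in the latter, and Mrap at 244 CPM (202 to 291) and 138 CPM (110 to 170). Hsd3b1 was at 298 CPM (252 to 350) and 357 CPM (311 to 407), with intervals that overlap. Of the 62 cells, 71.0% had Cyp11b1, against 45.1% of the 91. Kctd14, chosen after its values were seen, went the other way, at 66.5 CPM (45.8 to 93.4) with Cyp21a1 and 520 CPM (465 to 580) without it. Of the Kctd14 UMIs, 210 were in 16 cells of another cluster described below, of which 3 had Cyp21a1.

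D6 cells were clustered without 42 steroidogenic, adrenal, and Leydig genes, and 137 of the 153 cells (89.5%, 83.6 to 93.9) fell into 1 cluster of 265 cells led by Adh1. The other 16 fell into a cluster of 179 cells led by Amh, Kctd14, and Cst9, and the 8 remaining clusters held none. The other 128 cells of the first cluster were below the rule, but 104 of them had Star or Cyp11a1, and their adrenal genes summed to 360 CPM (319 to 406). That is below the 934 CPM (875 to 996) of the 137 steroidogenic cells of the cluster and above the 19.7 CPM of neither cells. As each gene used in clustering came from these cells, the values by cluster are a description.

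Among steroidogenic cells, the 16 in the second cluster differed from the 137 in the first. With 20 PCs, the main cluster held 95.4% of the 153 cells in place of 89.5%, so which cells lie outside it depends on the number of PCs. At least 1 adrenal gene was found in 8 of the 16 (50.0%, 24.7 to 75.3) and in 129 of the 137 (94.2%, 88.8 to 97.4), at median depths of 6724 and 6809 UMIs. Their adrenal genes summed to 371 CPM (270 to 498). Star was at 759 CPM against 855 CPM, a ratio of 0.888 (0.706 to 1.10), and Hsd3b1 at 405 CPM against 322 CPM, a ratio of 1.26 (0.910 to 1.71). The other rule gene, Cyp11a1, was lower, at a ratio of 0.689 (0.563 to 0.836), as was Nr5a1, at 0.698 (0.532 to 0.901). Cyp11b1 was at 0.398 times (0.220 to 0.667), Adh1 at 0.288 times (0.213 to 0.382), and Fdx1 at 0.511 times (0.405 to 0.638) the level of the 137 cells. The factors Wt1 and Gata4 were 11.8 (7.34 to 19.2) and 10.1 (5.33 to 19.2) times higher, and Gata6 was at 0.991 times (0.711 to 1.35). The 42 Amh UMIs of the steroidogenic cells were all in 6 of these 16 cells, and 5 of the 6 also had an adrenal gene. Scrublet, which scores droplets that may hold 2 cells, called 3 of the 153 cells and none of the 16. Its calls were set at the expected 1.95%, and the part of mixed droplets or free RNA in these 16 cells was not tested further.

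**Figure D5:**
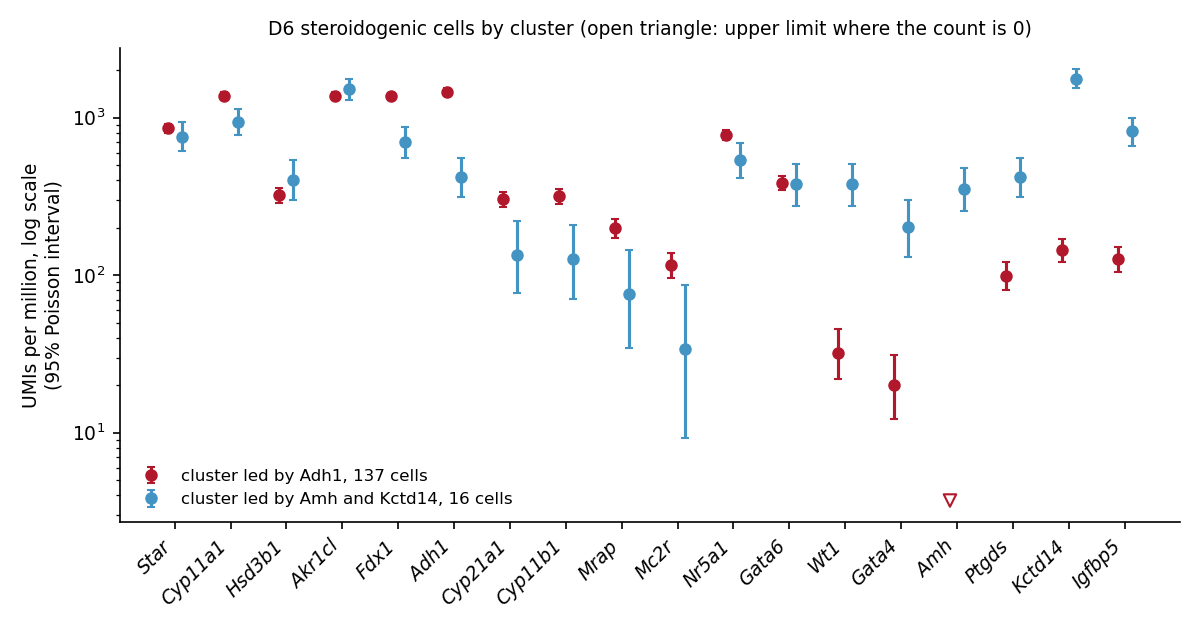
CPM on a log y axis for 18 genes in the steroidogenic cells of the cluster led by Adh1 (red, 137 cells) and of the cluster led by Amh and Kctd14 (blue, 16 cells). Bars are exact Poisson 95% intervals and the open triangle is the upper limit of a count of 0. Star, Hsd3b1, Akr1cl, and Gata6 lay close, the adrenal genes were higher in red, and Wt1, Gata4, Amh, Ptgds, Kctd14, and Igfbp5 were higher in blue.

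The 4 cells of the rule at E12.5 held 56793 UMIs and carried Cyp17a1 in 3 of 4. It had 6, 30, 5, and 0 UMIs in them, 722 CPM (518 to 979) in all, which was 40.2 times the level of the D6 cells. Insl3 had 4 UMIs, all in 1 cell, and Hsd3b1 had 14, 14, 17, and 6. Cyp21a1, Cyp11b1, and Mc2r had 0 UMIs in each of the 4 cells, and Mrap had 1 UMI. Set against 3 counts over the 4 cells, Cyp21a1 was at least 5.39-fold and Cyp11b1 at least 5.63-fold higher at D6. With 1 or more UMIs of each rule gene, 13 cells were found at E12.5, with 51 Cyp17a1 and 9 Insl3 UMIs and still 0 of Cyp21a1 and Cyp11b1. Lhcgr had 0 UMIs in these 13 cells, and 1 UMI over all E12.5 cells against 6 over all D6 cells. Its low count at D6 thus does not set the D6 cells apart from those of E12.5. In the whole E10.5, E11.5, and E12.5 libraries, Cyp21a1 and Cyp11b1 had 0 UMIs, against 412 and 402 at D6. Mc2r and Mrap were found there, with Mc2r at 2.80, 2.72, and 4.48 CPM at E10.5, E11.5, and E12.5, against 29.6 CPM over all D6 cells. Mrap was at 3.17, 1.58, and 1.32 CPM, against 24.5 CPM. Over all cells of a library, Cyp17a1 was at 2.58 CPM at E12.5 (2.07 to 3.17, 88 UMIs in 32 cells) and at 3.11 CPM at D6 (2.19 to 4.28, 37 UMIs in 15 cells), with intervals that overlap. Insl3 was at 0.615 CPM (0.380 to 0.939) and 0.168 CPM (0.0203 to 0.607).

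Of 8152 genes compared, 2198 (27.0%) were 2-fold or more higher in the D6 cells than in the 4 cells of E12.5, and 1070 (13.1%) were lower, 40.1% in either direction. With TMM factors, which shift all ratios up by 0.24 on the log2 scale, these numbers were 2626 and 709. Adh1 was at least 25.6-fold higher at D6, and Abhd2, Yipf1, Pik3r1, Lgr4, Irf2bp2, Zdbf2, and AY036118 followed among the 10 largest. Ren1, the gene of renin, was at 775 CPM at E12.5 (22, 6, 4, and 12 UMIs per cell) and at 1.80 CPM at D6. Smoc2, Cd24a, Fabp5, Cpa1, Igfbp7, Sct, Serpina3a, and Vnn1 were also among the 10 lower at D6. Akr1cl, Fdxr, Por, and Cyb5a were at 1.21, 1.10, 0.998, and 1.13 times the E12.5 level, with intervals that include equality. The intervals are wide because of the 4 cells, and kit version, strain, culture, tissue, and enrichment all differ and cannot be told apart. The 4 cells of the rule at E11.5 had 0 Cyp21a1, Cyp11b1, Mc2r, Cyp17a1, and Insl3 UMIs, and 1 UMI of Mrap in each of 2 cells. They had 17, 11, 12, and 5 UMIs of Sox9 and 15, 40, 16, and 1 of Aard, which are on the Sertoli list. From the same list, Amh had 0, 0, 1, and 0 UMIs, and Inha had 45, 1, 2, and 3. The paper cites a study that found Sox9 in supporting-like lineage cells as well. Ren1, on the list of other Leydig genes, had 13, 0, 0, and 1 UMIs.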

How the data were processed

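The authors deposited raw UMI counts per gene and barcode for each library, made with Cell Ranger (3.0.2 per the submitters' processing notes, 6.0.0 per the matrix header). The kit was version 2 in vivo and version 3 at D6. D6 cells with more than 1000 and fewer than 4000 genes and less than 12% mitochondrial UMIs were kept, 2285 of 2441 barcodes. The other libraries kept the limits of the methods. Doublets stayed in the main analysis. The deposited totals were 13965107 UMIs (D6), 40199985 (E10.5), 32519441 (E11.5), and 42242194 (E12.5). Members and all 26 gene lists were chosen with earlier results of these data known.

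Counts were summed per group and scaled to CPM. Ratios were compared on the log2 scale after adding 10 CPM, for genes with a mean of at least 10 CPM, and called at 2-fold. CPM carry exact Poisson intervals, shares exact binomial intervals, and ratios exact conditional binomial intervals, at 95% and for counting error only. The limit of a count of 0 is 3 counts. Genes were named if on a list, or among the 15 (D6) or 10 (E12.5) largest ratios per direction with at least 50 CPM in the higher group and 50 or 20 UMIs. Mitochondrial, ribosomal, unnamed, and Y-linked genes and Xist were not eligible. Kctd14, Cst9, and Igfbp5 in the cluster comparison and the neighbouring genes in the closing section were chosen after their values were seen. Leiden clustering in scanpy 1.11.5 (2000 variable genes, 10 PCs, 15 neighbours, resolution 0.5) left out 42 steroidogenic, adrenal, and Leydig genes. TMM came from edgeR 4.0.16, and the code for ratios and calls was tested on simulated data. Python 3.11.15, numpy 2.4.6, scipy 1.17.1, and matplotlib 3.10.9 were used. Positions are from GENCODE (GRCm38) and windows from RefSeq (GRCm38.p6).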

Additional observations from a re-analysis of the deposited data

Results flagged for a closer look

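The limits on genes and mitochondrial UMIs removed 156 D6 barcodes, which the main comparisons do not use. Of these, 43 (27.6%, 20.7 to 35.3) had 2 or more UMIs each of Star and Cyp11a1, a share above the 6.70% of retained D6 cells. The share among removed barcodes was 0 of 636 at E10.5, 3 of 348 at E11.5, and 1 of 412 at E12.5. All 43 were removed by the upper limit of 4000 genes, with medians of 17045 UMIs and 4804 genes. Their adrenal genes summed to 486 CPM (437 to 539), against 874 CPM in the 153 retained cells. At least 1 adrenal gene was found in 39 of the 43 (90.7%), against 89.5% of the retained cells, which were shallower. Wt1 was found in 33 of them (76.7%), against 20.9%. Amh was found in 6 of them, Cyp17a1 in 2, Lhcgr in 2, and Insl3 in none. Whether these barcodes hold more than 1 cell was not tested.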

How the results depend on the processing

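The share of D6 cells that met the rule was 9.67% with 1 or more UMIs each, 5.21% with 3 or more, 3.20% after thinning to 2500 UMIs, and 8.16% with no upper limit on genes. At 1 or more UMIs, the adrenal genes summed to 719 CPM and were found in 81.0% of the cells, after thinning to 943 CPM in 78.6% of 70 cells, and with no upper limit to 720 CPM. The Leydig genes summed to 51.4 CPM after thinning. Genes 2-fold or more higher than in neither cells numbered 712 after thinning and 722 with a pseudocount of 1 CPM. Against E12.5, 5365 genes were higher after thinning, which left 1 cell there, and 3321 with no filter on the mean, and 709 were lower with TMM factors. The main cluster held 95.4% of the cells with 20 PCs. Other planned values for these results stayed within the counting interval or 1.5 times the count. For 30 named genes under 11 alternatives, 213 of 330 log2 ratios stayed within the counting interval, 117 moved past it, and none of those at 2-fold or more turned direction. Against neither cells with Nr5a1, the log2 ratio was 3.46 for Fdxr, 1.31 for Nr4a1, 1.43 for Nr5a1, -3.58 for Col1a1, -2.98 for Lhx9, -1.91 for Nr2f2, and -2.32 for Pdgfra. Against all other D6 cells, which include those with UMIs of either gene that did not meet the rule, it was 4.30 for Adh1, 3.41 for Fdx1, 3.29 for Fdxr, 3.91 for Hsd3b1, 3.97 for Cyp21a1, 4.21 for Cyp11b1, and 3.44 for Mrap. The calls of Cyp17a1, Hoxb9, Wt1, Gata4, Ptgds, and Hmgcs1 depended on the alternative, whereas Cyp21a1, Cyp11b1, Mrap, and Mc2r stayed over 2-fold in each of the 11.

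No paired analysis was possible because each condition is 1 library, so no replicate was left out. The rule asks for 2 UMIs of each gene, so shallow steroidogenic cells are counted as other cells, and shares of cells depend on depth. The E12.5 levels rest on 4 cells.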

Other observations

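Genes next to the adrenal enzymes were examined after their values were seen, within 100000 bases on either side. Near Cyp11b1, Ly6d, 70505 bases away, was at 207 CPM in steroidogenic and 2.32 CPM in neither cells, and Lynx1, 81079 bases away, at 44.0 CPM and 0.580 CPM. Both reached the mean of 10 CPM through the steroidogenic cells alone, so that they could be compared only because they were high there. Near Cyp21a1, 8 of 11 genes could be compared and 1 was higher, C4b, 57466 bases away, which passed in the same way. The nearest gene compared there, Stk19, was at 43.1 CPM against 17.0 CPM and did not reach 2-fold with 10 CPM added. Near Mrap and Mc2r, 1 gene each could be compared, and neither reached 2-fold.

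Pairs of adrenal genes were counted in the 153 steroidogenic cells. Cyp11b1 and Mrap were found together in 60 cells, the most of the 6 pairs, and Cyp21a1 and Mc2r in 32, the fewest. Mrap was found in 80.6% of the 62 cells with Cyp21a1 and in 47.3% of the 91 without it, whereas Mc2r was found in 51.6% and 47.3%. The cells with Cyp21a1 were also deeper, with a median of 7458 UMIs against 6452, and the part of depth was not tested.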
